A study of Saccharomyces cerevisiae with 32 samples.

Results

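The start of a new cycle in an oscillating yeast culture was described by comparing 2 neighbouring windows of samples across all genes of Saccharomyces cerevisiae. The later window held the 4 arrays that the labels place at 11.87 to 12.07 h and at phase angles of 706° to 744°, and the earlier window held the 4 arrays at 11.6 to 11.8 h and 656° to 694°. The labels count phase onwards without a return to 0° in each cycle, and on their scale the new cycle opened between the arrays at 11.93 and 12 h. These 8 of the 32 arrays of the series were chosen by the labelled time and phase alone, and 5377 of 5449 genes on the arrays lay above background and were tested. The culture was CEN.PK113-7D, a haploid MATa laboratory strain grown at 30 °C and pH 4 in continuous flow, with a dilution rate set between 0.06 and 0.086 per h to hold a dissolved oxygen period of about 2 h. No treatment or allele differed between the windows. A sample of 0.5 ml was frozen every 4 min and each was hybridised to its own Affymetrix Yeast Genome 2.0 array. The 4 samples of a window are consecutive time points of a single culture and not replicates, so each SD and p-value holds the drift within the window and measures only the spread of these samples.

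Yeast fed slowly in continuous culture can fall into a shared respiratory rhythm, in which the whole population alternates between high and low oxygen uptake. In such cultures transcripts for making ribosomes, amino acids and nucleotides are known to alternate with transcripts for storage carbohydrates, stress proteins, autophagy and peroxisomes, and a fraction of the cells enters division in each turn. Where oxygen uptake is high or low on this scale of degrees is not stated in the sources at hand. As RNA came from the whole culture, fewer cells of a kind and less of a transcript per cell cannot be told apart.

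The defining transcripts of MATa cells were bright on all 8 arrays. Deposited signals were 5819.1 to 10936.8 for the a-factor gene MFA1, 7454.8 to 11752 for the α-factor receptor gene STE2 and 2936.7 to 6118.5 for the protease gene BAR1, against medians of 5.4 to 8.7 for fission yeast (S. pombe) probe sets. Genes that MATa cells should not express were not at the level of those probe sets, with 900.7 to 1695.1 for the pheromone gene MF(ALPHA)1, 63.2 to 101.8 for MF(ALPHA)2, 397.4 to 840 for the receptor gene STE3 and 830.4 to 1524.7 for the agglutinin gene SAG1. The S. cerevisiae probe sets had a median signal of 1745.2 to 2340.2 in the earlier window and 1435.5 to 1961.6 in the later one, and the mean log2 signal of the poly-A control transcripts added to the samples was 8.60 and 8.27. Values below are therefore quantile normalised, which fixes the same distribution on every array, and every difference is relative to the other genes of the array. The part that array brightness plays in single differences was not tested.

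The last step into the new cycle moved many transcripts in both directions. Of 5377 genes, 1368 rose (25.4%) and 1562 fell (29%), together 54.5% of genes, at an adjusted p under 0.05 by limma. At least 2-fold changes were called for 300 genes that rose (5.58%) and 224 that fell (4.17%), and at least 4-fold changes for 11 and 17 genes. The median difference over all genes was -0.02 on the log2 scale, and it was 0.57 over the genes that rose and -0.48 over those that fell. The 4 arrays of one window lay wholly above the 4 of the other for 1329 genes (24.7%) and wholly below for 1473 (27.4%), and 2559 genes (47.6%) were both called and without overlap. The smallest adjusted p was 0.0110, and 3364 genes (62.6%) passed an unadjusted 0.05. With the deposited values without scaling 526 genes rose and 1861 fell, a share of 22% rising among those called against 46.69%, and scaling by the poly-A controls gave 1334 and 469, a share of 74%. Scaling by the hybridisation controls gave 976 and 1805, a share of 35.1%, and 0 genes called under both scalings changed direction in any of these. The counts were 845 and 747 without the array at 11.67 h, 899 and 813 without that at 11.6 h, 833 and 737 without that at 12 h, and 1040 each without that at 11.73 h.

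**Figure D1:**
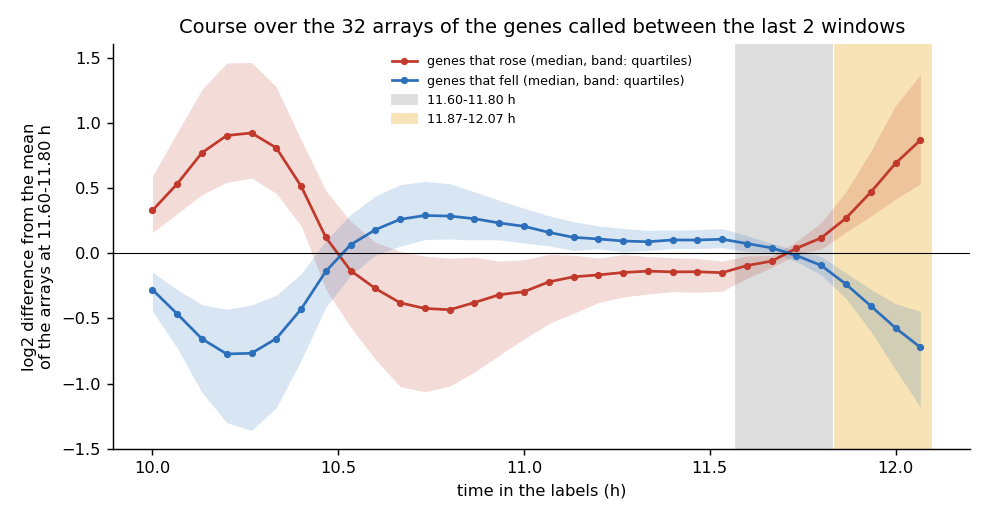
Median log2 difference from the mean of the arrays at 11.6 to 11.8 h (vertical axis) against time in the labels (horizontal axis, h) on all 32 arrays, for the 1368 genes that rose (red) and the 1562 that fell (blue) between the 2 shaded windows; bands run from the lower to the upper quartile of the genes. The medians part in the last 4 arrays to 0.87 and -0.72, and the same genes stood apart in the same sense at the start of the series, 1 cycle earlier.

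The change was still under way when the series ended. In the 4 arrays of the later window the genes that rose stood at a median of 0.27, 0.47, 0.69 and 0.87 above their mean at 11.6 to 11.8 h, and the genes that fell stood at -0.24, -0.40, -0.57 and -0.72. The last array held the extreme value among the 8 for 1209 of the 1368 genes that rose (88.4%) and for 1221 of the 1562 that fell (78.2%). The step between neighbouring arrays that moved a gene most was that from 11.93 to 12 h for 384 genes that rose (28.1%) and 443 that fell (28.4%), more than at any other of the 7 steps. The step from 11.6 to 11.67 h was the largest for 20 genes that rose and 28 that fell, the fewest at any step. The last array lay at nearly the phase of the third array of the series, 1 cycle earlier, and the medians on the last array, 0.87 and -0.72, stood beside 0.77 and -0.66 on that earlier one. The largest step came after 11.87 h for 923 of the genes that rose (67.5%) and for 1137 of those that fell (72.8%). Extremes and largest steps were counted among called genes only, and no share over all genes tested was computed. The call compares window means on the same arrays, which gives steps near the border of the windows more weight than the outer ones. Few called genes with their largest step at the outset are therefore no evidence of when the change began. The spread within the windows followed the same course, since the median SD of a gene was 0.0971 in the earlier window and 0.174 in the later one.

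The genes with the largest rise joined transport, RNA handling and purine salvage. AQR1, which encodes a plasma membrane transporter that exports amino acids and drugs, read 139.3, 161.9, 208 and 240.3 in the earlier window and 598.6, 1608, 2745.9 and 2500.1 in the later one. The windows did not overlap, and the rise was 8.67-fold (log2 3.12 ± 0.46 SE, adjusted p = 0.0110). DBP2, an RNA helicase of ribosome assembly and RNA quality control, went from 897.5, 1221.4, 1441.3 and 2599.1 to 3818.5, 6152.4, 8790.2 and 10335, a rise of 4.77-fold (2.25 ± 0.39, adjusted p = 0.0110). AAH1, the adenine deaminase of purine salvage, went from 1374.3, 1733.6, 2518.7 and 2978.5 to 5092.6, 8646.8, 11886.8 and 13469.6, a rise of 4.45-fold (2.15 ± 0.35, adjusted p = 0.0110). All 3 climbed through both windows without a plateau, except that AQR1 was lower on the last array than on the one before. The other 5 of the 8 largest rises were ANS1 (2.70), YGR079W (2.48), YOR338W (2.39), GFD2 (2.20) and YBR238C (2.18), of which YGR079W, YOR338W and YBR238C carry no standard name. ANS1 read 34.8, 33.5, 34.1 and 60.8 and then 91.2, 154.9, 432.8 and 820.5.

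The largest falls were among genes known from stationary phase, glycogen and the plasma membrane. SPG1, named for its part in survival in stationary phase, read 6880.5, 5954.2, 5005.4 and 4102.6 in the earlier window and 2396.8, 929.3, 362.5 and 225.5 in the later one, a fall of 8.21-fold (-3.04 ± 0.66, adjusted p = 0.0118). GIP2, a putative regulatory subunit of the Glc7 phosphatase that acts on glycogen synthase, read 3717.6, 3565.2, 2800.4 and 2305.6 and then 1251.2, 586.3, 306.7 and 191.7 (-2.73 ± 0.52, adjusted p = 0.0110). HSP30, a stress protein that restrains the proton pump of the plasma membrane, read 5795.9, 5752.6, 5436.3 and 4408.9 and then 3137.6, 1740.3, 647.9 and 299.3 (-2.39 ± 0.65, adjusted p = 0.0192). Each of the 3 was lower on every array than on the one before. With the 8 arrays left out in turn, HSP30 was called in 5 of the 8 leave-outs, with its highest adjusted p of 0.0572 without the array at 12 h. The other 7 of the 8 largest falls and the 8 largest rises were called with each of the 8 arrays left out. An adjusted p given below without 1 array is the highest of the 8 leave-outs, and a call could be lost without other arrays too. RTC3 (-2.74), the reticulon RTN2 (-2.60), the eisosome-associated membrane proteins YNL194C (-2.55) and FMP45 (-2.35) and the 6-phosphogluconolactonase SOL4 (-2.25) completed the 8.

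**Figure D2:**
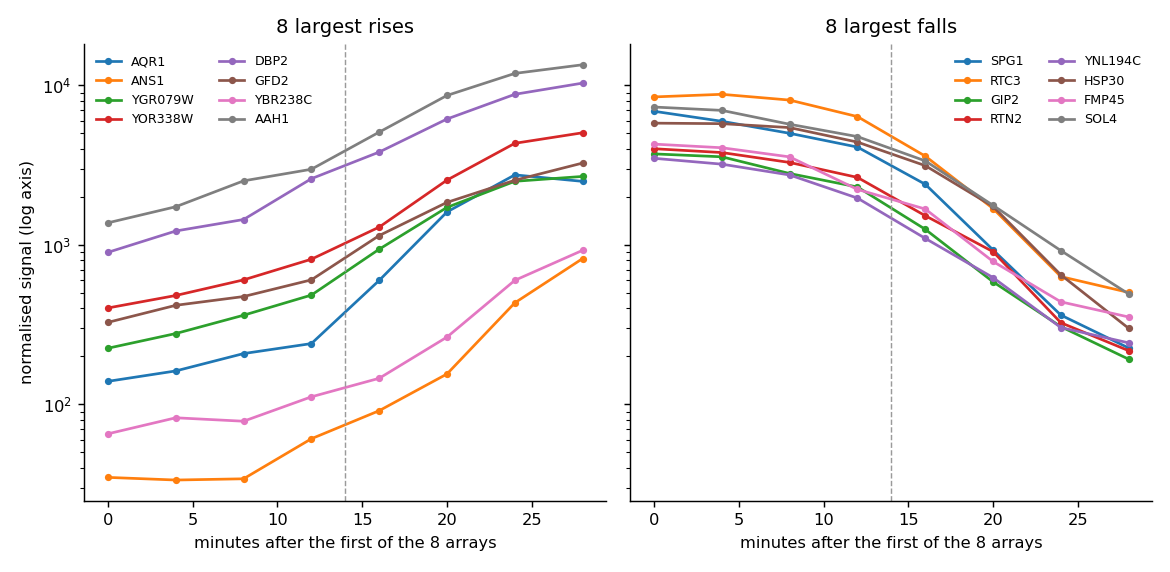
Normalised signal (vertical axis, logarithmic) of the 8 genes with the largest rise (left) and the 8 with the largest fall (right) against minutes after the first of the 8 arrays; each point is 1 array and the dashed line parts the windows. AQR1 climbs from 139.3 to above 2500 and SPG1 drops from 6880.5 to 225.5.

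Genes of ribosome assembly rose almost without exception. Of 69 genes of the small subunit processome, the particle that folds and cuts the precursor of the small subunit's rRNA, 68 rose, 53 of them at least 2-fold, with a median log2 difference of 1.26. Of 78 genes of 60S assembly, 77 rose, 57 at least 2-fold, with a median of 1.26. The single processome member without a call was ESF1 (-0.17 ± 0.23), whose values of 2098.9, 2583.4, 1511.2 and 3141.7 and then 2249.1, 2431.8, 1681.6 and 1744.8 scattered without order. DHR2, a helicase of the processome, went from 474.4, 522.8, 610.2 and 771.3 to 1217.8, 1911.5, 2935.3 and 3796.5 (1.95 ± 0.34, adjusted p = 0.0110). RSA4, a factor of late precursors of the large subunit, went from 1127.1, 1201.7, 1541.2 and 2065.5 to 3159.5, 4855.8, 6694 and 7552.3 (1.87 ± 0.30, adjusted p = 0.0110). The medians of these lists already stood 0.50 higher at 11.6 to 11.8 h than at 11.33 to 11.53 h, so their rise was not confined to the last step. DHR2 was lowest of the 32 arrays at 10.73 h, with 94.6, and read 336.3 to 378.3 at 11.33 to 11.53 h. RSA4 was lowest at 10.6 h, with 111.4, and read 734.9 to 805.1 at 11.33 to 11.53 h. Counts stayed between 64 and 68 and between 68 and 76 under the 4 other scalings, and between 65 and 68 and between 73 and 78 with 1 array left out.

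The enzymes that make and mature ribosomal and transfer RNA moved the same way. Of 28 subunits and factors of RNA polymerases I and III, 24 rose, with a median of 0.90, led by RRN11 (1.87 ± 0.29), a core factor of polymerase I, and the polymerase I subunit RPA49 (1.56 ± 0.29). RRN11 went from 303.8, 366.7, 462.7 and 533.1 to 913.5, 1320.7, 1985.2 and 2070.5. Of 21 genes of the RNA exosome and nuclear RNA decay, 18 rose (median 0.76; 10 with the deposited values without scaling), among them the RNase III gene RNT1 (1.72 ± 0.31) and the TRAMP complex gene AIR1 (1.64 ± 0.31). Of 36 genes of tRNA modification, 29 rose (median 0.86), with the methyltransferase subunit TRM11 (1.94 ± 0.35) and the dihydrouridine synthase DUS3 (1.80 ± 0.33) in front. One fell, THG1, the enzyme that adds a guanosine to histidine tRNA (-0.27 ± 0.07, adjusted p = 0.0199, and 0.0601 without the array at 12 h). THG1 read 3279.1, 3371.3, 3389.2 and 3554.5 and then 3145.7, 2890.2, 2712 and 2576.4, so its windows stood apart by a small margin. Together, 132 of the 300 genes with at least a 2-fold rise (44%) belonged to the lists of small subunit processome, 60S assembly, polymerases I and III and tRNA modification, which hold 211 of the genes tested (3.92%). These lists have the most such rises of the 41 lists, so their pooled share is a description and no independent evidence. The RNA exosome list held 4 such rises and the cytosolic ribosomal protein list 0.

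Genes of the translation machinery itself rose by less. Of 127 cytosolic ribosomal protein genes tested, 56 rose and 0 fell, with a median of 0.16, and 24 of the 127 came from probe sets with several possible genes. The count was 10 with the deposited values without scaling, 115 with scaling to the same median, 103 by the poly-A controls and 24 without the array at 11.67 h. The size of the rise depended on the scaling too. The list's median was 0.18 with the deposited values, 0.44 with scaling to the same median, 0.51 by the poly-A controls and 0.33 by the hybridisation controls. The mean log2 signal of the list was 13.51 ± 0.09 (SD over 4 arrays) in the earlier window and 13.71 ± 0.06 in the later one. RPL13A, a large subunit protein gene, led with 4994.5, 5005.4, 5975.9 and 6608 followed by 7944, 9647, 11724.6 and 12765.2 (0.88 ± 0.16, adjusted p = 0.0110). RPL22B followed at 0.88 ± 0.15. Of the 56, 39 had their largest step at or before 11.87 h, against 445 of the 1368 genes that rose (32.5%). Of 20 cytosolic aminoacyl-tRNA synthetase and cofactor genes 18 rose (median 0.49; 11 without the array at 11.6 h), and of 35 translation factor genes 24 rose (median 0.39), among them GCN3 (1.00 ± 0.20), a subunit of the nucleotide exchange factor of initiation, and RLI1 (0.92 ± 0.17), which recycles ribosomes. With the deposited values without scaling 9 genes of each of these lists rose.

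More genes of carriers and folding helpers rose than fell. Of 20 karyopherin and Ran genes 10 rose and 2 fell (median 0.25), and of 15 chaperonin and prefoldin genes 9 rose and 1 fell (median 0.22). Of all genes 25.4% rose and 29% fell, so falls were rarer in both lists than among all genes. With the deposited values without scaling 4 and 2 genes rose, and without the array at 11.6 h 8 and 4 rose. SXM1 (1.01 ± 0.21), an importer of the RNA-binding protein Lhp1, and KAP123 (0.75 ± 0.16), which imports ribosomal proteins, rose. The main exporter gene CRM1 read 3498.5, 3607.6, 3541.4 and 3737.6 and then 3339.8, 3114.9, 3067.7 and 2989.7 (-0.20 ± 0.06, adjusted p = 0.0222, and 0.0645 without the array at 12 h). Prefoldin subunits differed among themselves, since PAC10 (0.83 ± 0.18) and GIM3 (0.67 ± 0.14) rose and GIM4 fell (-0.33 ± 0.10, adjusted p = 0.0227, and 0.0668 without the array at 12 h).

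Nucleotide synthesis rose with ribosome assembly. Of 26 purine genes 21 rose and 1 fell (median 0.55), and of 15 pyrimidine genes 13 rose and 2 fell (median 0.77). IMD4, an IMP dehydrogenase of guanine nucleotide synthesis, went from 707.4, 782.8, 911.2 and 1078.3 to 1728.4, 3006.2, 4725 and 6194.7 (2.03 ± 0.37, adjusted p = 0.0110). Its relative IMD3 rose less (0.69 ± 0.12), from 5704.4 to 7189.6 in the earlier window to 8842.4 to 12328.6 in the later one. FUR4, the uracil permease, went from 1025.2, 1257.3, 1503.8 and 1692.2 to 2502.6, 3058, 3980.5 and 4702.2 (1.36 ± 0.22, adjusted p = 0.0110). Neither pair of windows overlapped. The largest step came by 11.87 h for 12 of the 21 purine genes and for 7 of the 13 pyrimidine genes that rose. Among all genes that rose this share was 32.5%.

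Amino acid synthesis and uptake rose in part. Of 36 genes of sulfate assimilation and methionine 28 rose and 1 fell (median 0.57), of 66 other amino acid synthesis genes 44 rose and 1 fell (median 0.29; 26 rose without the array at 12 h and 17 with the deposited values without scaling), and of 19 permease genes 12 rose and 2 fell (median 0.36). With the deposited values without scaling 16 sulfur genes and 6 permease genes rose. MET8, which makes the sirohaem cofactor of sulfite reductase, went from 1663.8, 1933.1, 2231.7 and 2903 to 3473.4, 5253.2, 6388.5 and 7182 (1.33 ± 0.25, adjusted p = 0.0110). The methionine permease MUP1 (1.19 ± 0.21) and the chorismate mutase ARO7 (1.20 ± 0.22) rose as well. STR2, a cystathionine synthase of the pathway from cysteine back to methionine, fell (-0.36 ± 0.10, adjusted p = 0.0180, and 0.0554 without the array at 12 h), as did LYS5, which activates the aminoadipate reductase of lysine synthesis (-0.46 ± 0.08, adjusted p = 0.0110). Among permeases HIP1 for histidine (1.34 ± 0.27) and GNP1 for glutamine (1.21 ± 0.22) rose. The basic amino acid permease gene ALP1 fell (-0.88 ± 0.23, adjusted p = 0.0160), and so did the proline permease gene PUT4 (-0.42 ± 0.15, adjusted p = 0.0489, and 0.109 without the array at 11.6 h).

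More nitrogen catabolism genes rose than fell. Of 25 genes 14 rose and 5 fell, with a median of 0.52, and 9 rose with the deposited values without scaling and 1 fell without the array at 11.6 h. Of all genes 25.4% rose and 29% fell, so the share of this list that fell was below that of all genes. The allantoinase gene DAL1 read 99.1, 105.8, 114.7 and 124.6 and then 190, 293.8, 443.9 and 774.3 (1.73 ± 0.38, adjusted p = 0.0117), and the ammonium permease gene MEP3 rose from 917.3, 930.4, 963 and 1254.6 to 1569.9, 2460.9, 3967.1 and 4592.1 (1.52 ± 0.32, adjusted p = 0.0111). UGA2 and UGA1, enzymes of the GABA shunt, fell. UGA2, the succinate semialdehyde dehydrogenase, read 2906.3, 2800.4, 2722.8 and 2649.9 and then 2059, 1694, 1194.5 and 871.1 (-1.003 ± 0.24, adjusted p = 0.0141). UGA1, the GABA transaminase, fell by 0.81 ± 0.24 on the log2 scale (adjusted p = 0.0237, and 0.0670 without the array at 12 h).

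**Figure D3:**
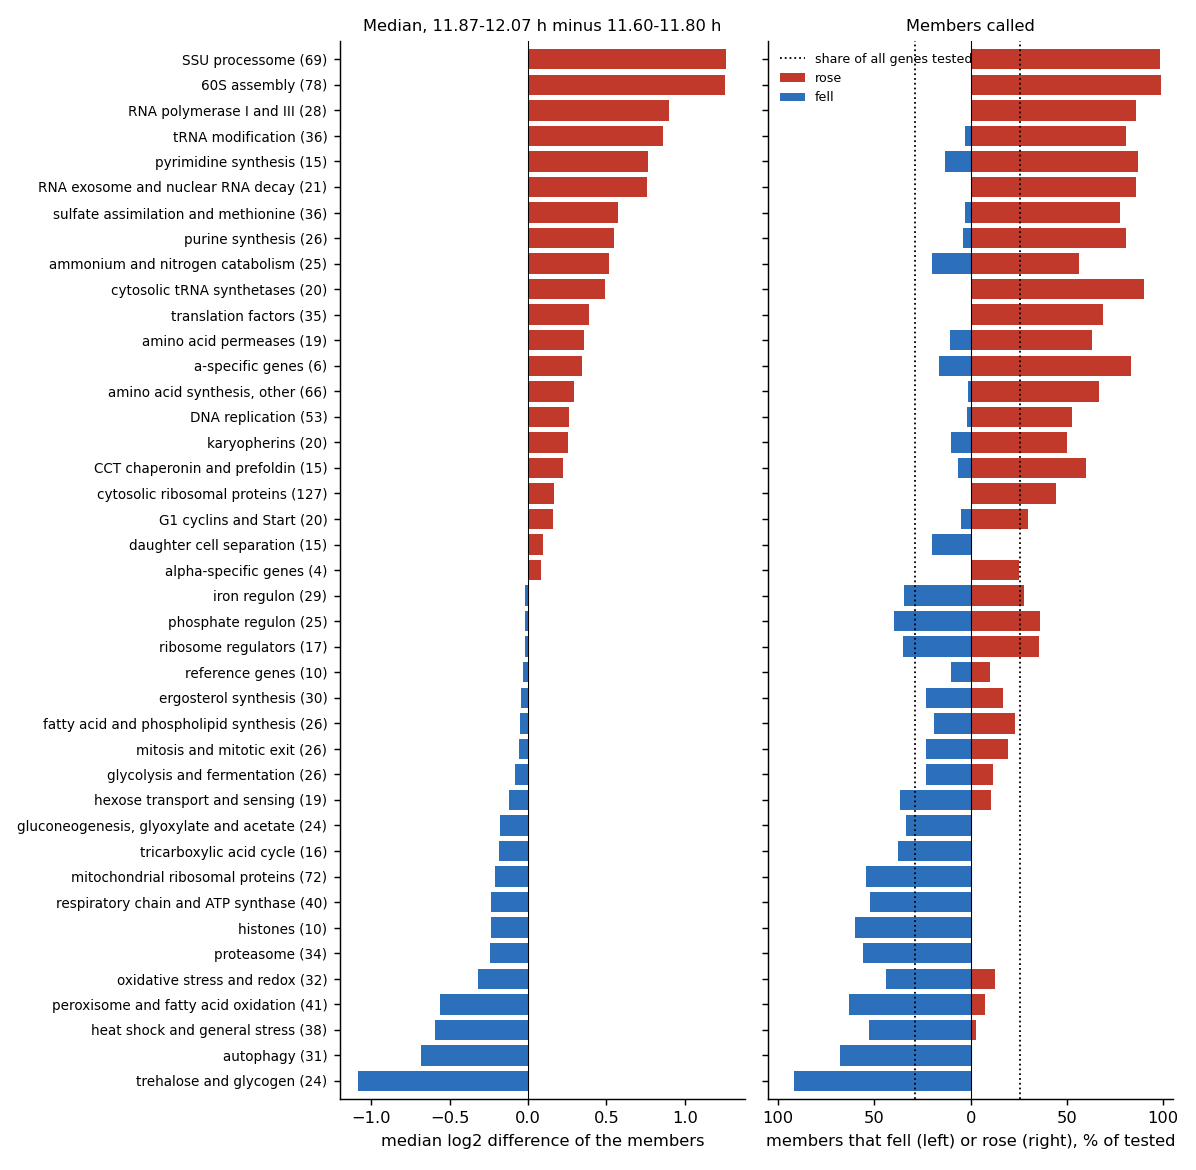
Median log2 difference (left) and members called (right, in percent of members tested, falls to the left of 0 and rises to the right) for 41 gene lists, with the number of members tested in brackets; dotted lines mark the 25.4% of all genes that rose and the 29% that fell. Processome and 60S assembly genes stand at a median of 1.26 and trehalose and glycogen genes at -1.08.

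Storage carbohydrate genes had the lowest median of the 41 lists. Of 24 genes of trehalose and glycogen metabolism 22 fell, 14 of them at least 2-fold, and 0 rose, with a median of -1.08. TSL1, a large subunit of the trehalose synthase complex, read 7966.7, 7696.9, 6023.8 and 5196.7 and then 3871.1, 2170.5, 1077.7 and 603.7 (-2.11 ± 0.52, adjusted p = 0.0147). The list holds both synthetic and degrading enzymes. Of the 22, 21 had their largest step after 11.87 h, and 11 of them had it between the last 2 arrays. Among all genes that fell these shares were 72.8% and 24.3%. The count was 14 without the array at 12 h and 18 with scaling by the poly-A controls.

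Stress, autophagy and peroxisome genes fell with them. Of 38 heat shock and general stress genes 20 fell and 1 rose (median -0.60), of 31 autophagy genes 21 fell and 0 rose (median -0.68), of 41 genes of peroxisomes and fatty acid oxidation 26 fell and 3 rose (median -0.56), and of 32 genes of the oxidative stress list 14 fell and 4 rose (median -0.32). With scaling by the poly-A controls 10, 13, 10 and 3 genes fell. CTT1, the cytosolic catalase, read 3514.8, 3446.4, 3151.7 and 2603.3 and then 1570.9, 1006.9, 584.6 and 336.3 (-2.08 ± 0.42, adjusted p = 0.0110). The glutathione peroxidase gene GPX1 (-1.52 ± 0.30) and the sulfiredoxin gene SRX1 (-1.02 ± 0.25) fell, whereas the NADPH oxidoreductase gene OYE2 (0.68 ± 0.11) and the glutaredoxin gene GRX3 (0.53 ± 0.10), whose product takes part in iron sensing, rose. The stress list's single rise was SSB1 (0.23 ± 0.06, adjusted p = 0.0206, and 0.0623 without the array at 11.67 h), a ribosome-associated Hsp70 whose probe set can match other genes too.

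ATG7, the enzyme that activates Atg8 and Atg12 in autophagy, read 1583.7, 1529.6, 1505.8 and 1143 and then 1061.9, 702.9, 445.5 and 210.3 (-1.47 ± 0.44, adjusted p = 0.0254). ATG20, a sorting nexin of selective autophagy, fell by 1.33 ± 0.28 on the log2 scale. Among peroxisomal genes FAT3 of fatty acid uptake read 8403.5, 7725.2, 7799.1 and 6614.4 and then 5346.4, 3507.1, 1328.8 and 482.7 (-2.03 ± 0.67, adjusted p = 0.0339), and PXA2, a subunit of the peroxisomal fatty acid importer, fell by 1.84 ± 0.59 on the log2 scale. PEX21, a receptor helper for peroxisomal import, and the mitochondrial carnitine carrier CRC1 rose (0.82 ± 0.15 and 0.48 ± 0.11). The step between the last 2 arrays was the largest for 15 of the 26 peroxisome genes and 7 of the 21 autophagy genes that fell, against 24.3% of all genes that fell. The calls of ATG7, FAT3 and PXA2 were lost without the array at 12 h (adjusted p = 0.0674, 0.0869 and 0.0777), and 8 peroxisome genes and 14 autophagy genes then fell. ATG7 was called in 4 of the 8 leave-outs and FAT3 and PXA2 in 3 each. Only 6 stress genes fell without the array at 11.67 h, and without that at 11.6 h 5 genes of the oxidative list. The lists of storage, stress, autophagy and peroxisomes held 43 of the 224 genes with at least a 2-fold fall (19.2%) and 2.49% of the genes tested, and 59 of the 224 were in any of the 41 lists. These lists have the most such falls of the 41, so their pooled share is a description and no independent evidence.

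Mitochondrial and proteasome genes fell by small amounts. Of 72 mitochondrial ribosomal protein genes 39 fell and 0 rose (median -0.21), of 40 respiratory chain and ATP synthase genes 21 fell and 0 rose (median -0.23), of 16 genes of the tricarboxylic acid cycle 6 fell and 0 rose (median -0.19), and of 34 proteasome genes 19 fell and 0 rose (median -0.24). Of all genes tested 29% fell, a share near that of the tricarboxylic acid cycle genes. The counts of these lists depended on scaling and on single arrays. With scaling by the poly-A controls 1, 2, 0 and 0 genes fell, and the medians of the respiratory chain and of the tricarboxylic acid cycle were above 0 (0.06 and 0.11). The median of the tricarboxylic acid cycle was also above 0 with scaling to the same median (0.04). Without the array at 11.67 h 10 mitochondrial ribosomal genes and 2 proteasome genes fell, without that at 12 h 2 respiratory genes, and without that at 11.6 h 0 genes of the tricarboxylic acid cycle. PET123, a small subunit protein of the mitochondrial ribosome, read 2887, 2676.9, 2431.8 and 2608.3 and then 2299.1, 2048.6, 1538.9 and 1253 (-0.61 ± 0.18, adjusted p = 0.0254, and 0.0707 without the array at 12 h). KGD2 of the α-ketoglutarate dehydrogenase fell by 0.69 ± 0.22 on the log2 scale (adjusted p = 0.0316, and 0.0811 without the array at 12 h). RPN4, the transcription activator of proteasome genes, read 6573.2, 6359.8, 6455 and 6169.5 and then 5284.2, 4494.6, 3280.8 and 2906.3 (-0.72 ± 0.18, adjusted p = 0.0149).

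Central carbon genes mostly stayed without a call. Of 26 glycolysis and fermentation genes 3 rose and 6 fell, of 19 genes of hexose transport and sensing 2 rose and 7 fell, and of 24 genes of gluconeogenesis, the glyoxylate cycle and acetate 8 fell and 0 rose. The shares that fell were near the 29% of all genes, and those that rose were below the 25.4% of all genes. Without the array at 11.6 h 2, 0 and 2 genes of these lists fell. The aldehyde dehydrogenase gene ALD3 read 482.7, 448.1, 404.8 and 333 and then 205.4, 133.4, 166.5 and 88.6 (-1.53 ± 0.25, adjusted p = 0.0110). CAT8, the activator of gluconeogenic genes, fell by 1.02 ± 0.28 on the log2 scale (adjusted p = 0.0191, and 0.0553 without the array at 12 h). The bulk glycolytic genes TDH3 (0.12 ± 0.07) and GPM1 (0.04 ± 0.06) had windows that overlapped, while GPM2, a copy of the phosphoglycerate mutase gene without known activity, fell (-1.33 ± 0.41, adjusted p = 0.0282, and 0.0735 without the array at 12 h). The call of GPM2 held in 4 of the 8 leave-outs.

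Within several families related genes moved apart. PFK27 and PFK26 both make 6-phosphofructo-2-kinase, whose product activates glycolysis. PFK27 read 201.7, 263.9, 299.3 and 334.4 and then 585.1, 966.3, 1554.5 and 1936.7 (2.07 ± 0.36, adjusted p = 0.0110). PFK26 read 3999, 3776.9, 3356.8 and 2911.3 and then 2712, 1871, 1092.7 and 668.3 (-1.33 ± 0.39, adjusted p = 0.0244). The hexose transporter genes HXT4 (1.68 ± 0.26) and HXT2 (0.77 ± 0.13) rose, and HXT5 (-1.36 ± 0.40, adjusted p = 0.0244) and HXT10 (-1.48 ± 0.49, adjusted p = 0.0346) fell. HXT5, which is known to be expressed at slow growth, went from 12243.8, 12315.7, 11351.9 and 10503 to 8817.4, 6237.3, 3677.5 and 2020.7, while HXT4 went from 883.1, 1127.8, 1530 and 1812.2 to 2823.8, 4236.1, 5270.9 and 4685.4. HXT1 (0.35 ± 0.17) and HXT3 (0.28 ± 0.10), chosen after their values were seen, had no call. The calls of PFK26, HXT5 and HXT10 were lost without the array at 12 h (adjusted p = 0.0680, 0.0675 and 0.0817).

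The same was seen in nucleotide synthesis and nuclear transport. Of the CTP synthase genes URA7 read 1523.1, 1872.4, 2478.5 and 3187.7 and then 4873.2, 7072.5, 7913.7 and 10370.8 (1.74 ± 0.28, adjusted p = 0.0110). URA8 read 5082.2, 4713.6, 4319.2 and 4119 and then 3985.5, 3611.8, 2951.8 and 2588.7 (-0.49 ± 0.14, adjusted p = 0.0231). Of the orotate phosphoribosyltransferase genes URA10 fell (-1.30 ± 0.27, adjusted p = 0.0111) and URA5 rose (0.39 ± 0.09, adjusted p = 0.0120). The Ran genes GSP2 (-0.68 ± 0.19, adjusted p = 0.0221) and GSP1 (0.50 ± 0.10, adjusted p = 0.0110), and ADE16 (-0.32 ± 0.11, adjusted p = 0.0364) and ADE17 (0.35 ± 0.07, adjusted p = 0.0110) of the last purine steps, also parted. URA8 and GSP2 were called in 5 of the 8 leave-outs and ADE16 in 2. Their adjusted p was highest without the array at 12 h (0.0663, 0.0621 and 0.0950 for URA8, GSP2 and ADE16). In other pairs 1 copy moved and the other had no call. LEU9 of leucine synthesis rose (1.503 ± 0.30) and LEU4 read 14664.9, 14422.8, 14687.1 and 13469.6 and then 14531.7, 14011.7, 14581.5 and 14066.1 (0.00 ± 0.05, adjusted p = 0.992). The external NADH dehydrogenase gene NDE2 fell (-1.09 ± 0.37, adjusted p = 0.0368, and 0.0882 without the array at 12 h), and NDE1 had no call (-0.03 ± 0.05). The call of NDE2 held in 3 of the 8 leave-outs. By contrast, both cytochrome c genes were called as falling, CYC7 by 2.10 ± 0.51 and CYC1 by 0.25 ± 0.07 on the log2 scale. CYC1 was called in 4 of the 8 leave-outs and was at 0.02 with scaling by the poly-A controls. RTN1 (0.04 ± 0.05) and SOL3 (0.16 ± 0.06, adjusted p = 0.050005), relatives of the strongly falling RTN2 and SOL4, had no call. URA5, GSP1, ADE17, IMD3, LEU4, NDE1, CYC1, RTN1 and SOL3 were picked with their values in view. The difference within a pair was not itself tested.

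**Figure D4:**
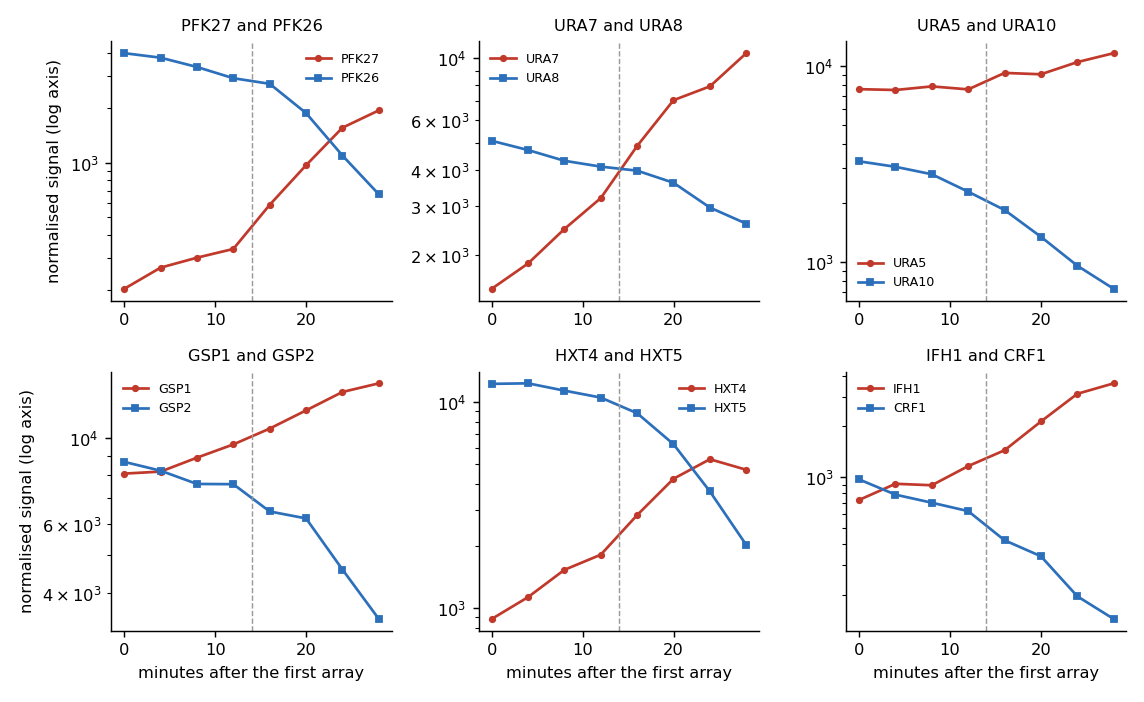
Normalised signal (vertical axis, logarithmic) of 6 pairs of related genes on the 8 arrays against minutes after the first, with the rising gene in red circles and the falling gene in blue squares; the dashed line parts the windows. PFK27 climbs from 201.7 to 1936.7 while PFK26 drops from 3999 to 668.3. Heights of different genes are not comparable, since probe sets differ in brightness.

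Among 17 regulators of ribosome genes 6 rose and 6 fell, and 3 rose and 5 fell without the array at 11.6 h. Of all genes tested 25.4% rose and 29% fell. IFH1, the coactivator of ribosomal protein genes, read 730.5, 911.2, 893.1 and 1160.7 and then 1441.6, 2136.3, 3118.9 and 3599.2 (1.41 ± 0.28, adjusted p = 0.0110). CRF1, its relative, which is known as a corepressor of the same genes, read 967.4, 785.4, 703.4 and 627 and then 420.6, 338.3, 195.6 and 143.4 (-1.59 ± 0.33, adjusted p = 0.0110). FHL1, the factor both bind, had no call (0.46 ± 0.18, adjusted p = 0.0541). TOD6, a repressor of ribosome assembly genes that binds their PAC motif, rose with those genes (1.78 ± 0.32, adjusted p = 0.0110), from 534.2, 622.5, 872.4 and 1043.4 to 1562.6, 2127.4, 3219.5 and 3972.1. Its relative DOT6 had no call (-0.07 ± 0.05), and STB3, which binds the RRPE motif of the same genes, fell (-0.53 ± 0.13, adjusted p = 0.0151). SFP1, an activator, rose by 0.27 ± 0.09 (adjusted p = 0.0381, and 0.0992 without the array at 12 h) and was at -0.01 in the deposited values without scaling. FHL1, DOT6 and SFP1 were picked with their values in view.

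Of 53 DNA replication genes 28 rose and 1 fell, and of 20 genes of G1 cyclins and Start 6 rose and 1 fell, the latter a share near the 25.4% of all genes that rose. The medians were 0.26 and 0.16, and they were at -0.04 and -0.14 in the deposited values without scaling. CLN3, the most upstream G1 cyclin, read 1807.1, 1903, 2284.1 and 2359.9 and then 2936.8, 3756.1, 4342.8 and 4481.5 (0.88 ± 0.15, adjusted p = 0.0110). CLN2 followed with 0.76 ± 0.19 (adjusted p = 0.0146) and PCL1 with 1.05 ± 0.27 (adjusted p = 0.0164, a call lost without the array at 12 h). FAR1, an inhibitor of the G1 cyclins, rose with them (0.98 ± 0.19), whereas SIC1, the inhibitor of the S-phase cyclins, fell (-0.27 ± 0.08, adjusted p = 0.0263, and 0.0739 without the array at 11.67 h). The S-phase cyclin gene CLB6 read 186.2, 184.2, 188.6 and 173.3 and then 250.1, 357.1, 556.5 and 971.1 (1.35 ± 0.37, adjusted p = 0.0188, and 0.0553 without the array at 12 h), and CLB5 rose by 0.47 ± 0.15 (adjusted p = 0.0283, and 0.0726 without the array at 11.67 h). The polymerase ε subunit gene DPB2 rose (1.17 ± 0.26) and DPB3 of the same enzyme fell (-0.44 ± 0.11). All 6 of the G1 list's rises had their largest step after 11.87 h, against 67.5% of all genes that rose. CLN3, CLN2 and CLB5 were chosen after their values were seen. Of the DNA replication genes 14 rose without the array at 12 h, and 7 did so with the deposited values without scaling.

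Histone, mitosis and cell separation genes followed other courses. Of 10 histone genes 6 fell and 0 rose (median -0.24, and 0.05 with scaling by the poly-A controls). Of the 6, 5 had their largest step at or before 11.87 h, against 27.2% of all genes that fell. The histone median was already -0.26 in the step from 11.33 to 11.53 h into 11.6 to 11.8 h, so the fall was not confined to the last step. HHT2, a histone H3 gene, read 6933.2, 8148.4, 7157.1 and 8183.5 and then 6761.4, 4783.9, 4596.2 and 4779 (-0.55 ± 0.13, adjusted p = 0.0137). Unlike the other histone genes that fell, HHT2 had its largest step after 11.87 h. In the step before, HHT2 differed by -0.49 ± 0.07, without a call. Of 26 genes of mitosis and mitotic exit 5 rose and 6 fell, shares below the 25.4% and 29% of all genes. Without the array at 11.6 h 3 histone genes fell, and of the mitosis list 1 gene rose and 2 fell. HCM1, a forkhead activator of S phase, rose (0.65 ± 0.19, adjusted p = 0.0232), as did FKH1 (0.40 ± 0.12, adjusted p = 0.0220), which was at -0.08 in the deposited values without scaling. The mitotic cyclin gene CLB1 fell (-0.33 ± 0.08, adjusted p = 0.0136). HCM1 and FKH1 lost their calls without the array at 12 h (adjusted p = 0.0661 and 0.0638). Of 15 daughter cell separation genes 3 fell and 0 rose, also below the shares of all genes. The list's median was 0.09, and it was at -0.17 in the deposited values without scaling and at -0.02 by the hybridisation controls. It followed a median of -0.62 in the step from 11.33 to 11.53 h into 11.6 to 11.8 h. SCW11, a cell wall glucanase of that list chosen afterwards, read 2962.4 to 4836.5 at 11.33 to 11.53 h, then 2411.1, 2231.1, 2061.6 and 1744.8, and then 1697.8, 1792.9, 2335.2 and 3763.8. Its signal thus turned upwards within the later window, and the difference of the windows was 0.12 ± 0.25. DSE1 and DSE2, chosen likewise, ran the same course, with lowest values of 1172.4 at 11.93 h and 3151.7 at 11.87 h. RME1, a repressor of meiosis that is also known to promote CLN2 transcription, fell from 5365.3, 5138.6, 4923.1 and 4689.7 to 3851, 3376.1, 2454 and 1976 (-0.83 ± 0.20, adjusted p = 0.0134).

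Mating genes that rose were mainly a-specific ones. Of 6 a-specific genes 5 rose and 1, ASG7, fell (-0.30 ± 0.11, adjusted p = 0.0485), and the median was 0.34. The rises numbered 0 without the array at 11.67 h, 1 without that at 12 h, 2 without that at 11.6 h and 1 with the deposited values without scaling, and ASG7 kept its call in 1 of the 8 leave-outs. BAR1, which degrades the α-factor pheromone outside the cell, read 3173.7, 3187.7, 3413.8 and 4090 and then 4137, 4873.2, 5409.4 and 6732.1 (0.59 ± 0.15, adjusted p = 0.0164). Of 4 α-specific genes MF(ALPHA)1 rose (0.64 ± 0.17, adjusted p = 0.0173, with no call in that list without the array at 11.6 h or that at 11.67 h) and the others had no call. The share of that list that rose was near the 25.4% of all genes. That list's median of 0.09 was below 0 with the deposited values without scaling (-0.30), with scaling to the same median (-0.03) and by the hybridisation controls (-0.14).

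Lipid, iron and phosphate lists held members that moved both ways, beside 25.4% of all genes that rose and 29% that fell. Apart from the phosphate list, the shares of these lists lay near or below those of all genes. Of 30 ergosterol genes 5 rose and 7 fell, with ERG4 of the last step up (0.50 ± 0.11) and the squalene synthase gene ERG9 down (-0.62 ± 0.17, adjusted p = 0.0199, and 0.0582 without the array at 12 h). Of 26 genes of fatty acid and phospholipid synthesis 6 rose and 5 fell, among them the glycerol phosphate acyltransferase gene GPT2, with 9366.6, 9393.6, 9195.9 and 8326.7 and then 6936.9, 5152.8, 3106 and 1756.4 (-1.28 ± 0.38, adjusted p = 0.0244, and 0.0674 without the array at 12 h). Of 29 iron genes 8 rose and 10 fell, with the low-affinity transporter gene FET4 up (1.40 ± 0.41, adjusted p = 0.0229, and 0.0647 without the array at 12 h) and the manganese transporter gene SMF1 down (-0.70 ± 0.15, adjusted p = 0.0118). Of 25 phosphate genes 9 rose and 10 fell. The low-affinity phosphate transporter gene PHO90 rose from 1997.9, 2430.9, 2864.8 and 2859.8 to 4274.7, 6053.8, 8290.2 and 9499.3 (1.42 ± 0.25, adjusted p = 0.0110). PHM7 fell from 4678.6, 4260.8, 3929.7 and 3203.8 to 2340.8, 1272.1, 674.1 and 351.7 (-2.12 ± 0.52, adjusted p = 0.0144). Of 10 common reference genes ALG9 fell (-0.22 ± 0.07, adjusted p = 0.0281, and 0.0811 without the array at 12 h) and TRS65 rose (0.49 ± 0.11, adjusted p = 0.0126), and ACT1, the actin gene, differed by 0.04 ± 0.05 with windows that overlapped. The list's median of -0.04 was at 0.22 with scaling by the poly-A controls. Without the array at 11.6 h 2 ergosterol, 2 phospholipid, 5 iron and 5 phosphate genes rose, and 0, 1, 4 and 4 fell.

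The step just before was much smaller. From 11.33 to 11.53 h into 11.6 to 11.8 h the median absolute difference was 0.0878, against 0.291 in the last step, and limma called 1 gene (0.0186% of genes), while 1504 (28%) passed an unadjusted 0.05. The called gene was OCT1, a mitochondrial peptidase, which read 877.5 to 966.5 at 11.33 to 11.53 h and 606, 676.9, 674.8 and 662.8 at 11.6 to 11.8 h (-0.50 ± 0.05, adjusted p = 0.0401), and in the last step it had no call, with 630.3, 630.3, 701.7 and 647.4. Both comparisons share the arrays at 11.6 to 11.8 h. The test of the difference between both steps called 0 genes by limma, with 1322 (24.6%) at an unadjusted p under 0.05. It called 1838 genes without the array at 11.87 h, and the step before called 859 without the array at 11.6 h.

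Most of these genes also differed between the start and a later stretch of the earlier cycle. The comparison of the first 4 arrays of the series, at 10 to 10.2 h, with those at 11.33 to 11.53 h uses 0 arrays of the last step, and sets the start of a cycle against arrays taken later in that cycle. It called 1744 genes higher at the start (32.4%) and 2103 lower (39.1%). Of the genes that rose in the last step 1243 were also higher there, which is 90.9% of the 1368 and 71.3% of the 1744. Of those that fell 1418 were also lower there, 90.8% of the 1562 and 67.4% of the 2103. Across the 5377 genes, which are not independent replicates, the differences correlated with a Pearson r of 0.957 and a Spearman rho of 0.935. No gene that rose in the last step was called lower in the other comparison, and 3 genes that fell were called higher there. They were CTF19, a kinetochore protein gene (-0.38 ± 0.09 and 0.36), SEC28 of the coatomer (-0.24 ± 0.08 and 0.27) and the histone chaperone gene SPT16 (-0.18 ± 0.07 and 0.16), and SEC28 and SPT16 lost their calls without the array at 12 h (adjusted p = 0.0729 and 0.124). AQR1 differed by 4.13 there and SPG1 by -2.01 (adjusted p = 0.0549, no call), and neither passed the limma test of the difference from the last step (adjusted p = 0.407 and 0.658). SPG1 read 11676.6 on the first array of the series, at 357°, and 929.3 at 718° in the last step.

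**Figure D5:**
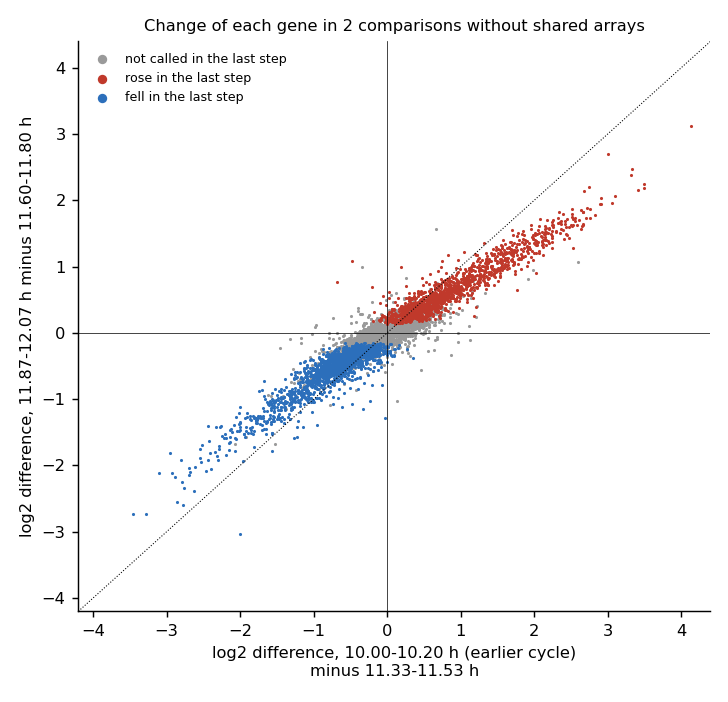
Log2 difference of each of the 5377 genes in the last step (vertical axis) against the difference between the first 4 arrays of the series and those at 11.33 to 11.53 h (horizontal axis); red genes rose and blue genes fell in the last step, grey genes had no call and the dotted line marks equal values. Most points lie near a line flatter than the dotted one, such as AQR1 at 3.12 against 4.13, whereas SPG1 lies on the steeper side, at -3.04 against -2.01.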

How the data were processed

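Per the labels' protocols, 5 µg of labelled cRNA from each of 32 consecutive samples of the culture was hybridised to an Affymetrix Yeast Genome 2.0 array. The authors deposited 1 intensity per probe set and array, on a linear scale. GCOS is the software named in the submitters' processing notes, with no version or scaling stated. Of 10928 probe sets, 5498 named 1 S. cerevisiae gene each, 1747 were of S. pombe, 3517 had no name and 166 were controls. The tests used the S. cerevisiae probe sets. Correlations among the 8 arrays compared were 0.875 to 0.995, and 0 columns were identical. Precision is limited by there being 4 arrays to a window.

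From the deposited intensities, log2(intensity + 1.9) was quantile normalised over the S. cerevisiae probe sets of the 32 arrays, where 1.9 is the 10th percentile of all values. The brightest probe set stood for each gene, and genes with a mean above 4.45 (log2; the 95th percentile over S. pombe probe sets) were tested, 110 of them from probe sets that can match several genes, of which 43 were called. Signals in the text are normalised values returned to the linear scale unless called deposited. The windows, of 4 arrays each, were compared with limma 3.58.1 in R 4.3.3 (lmFit, eBayes), two-sided, with a Benjamini-Hochberg adjusted p under 0.05; errors are SE of log2 differences. The same test was run for 3 further comparisons and, after seeing the data, for the difference between 2 comparisons over 16 arrays. It was tested before use on simulated data with independent noise and no drift within windows, so that trial does not cover the drift between consecutive samples.

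The 41 gene lists (1334 entries, 28 not matched to a gene) and the windows were chosen with earlier results of these data known, so the lists are no independent evidence of their direction. ARG1, placed among the tRNA synthetases by mistake, was removed after its value had been seen. The named genes are the 8 largest rises and 8 largest falls whose windows do not overlap and whose higher mean is at least 2 log2 units above background, up to 2 called members per list and direction, the reference genes, genes called in the step before, and genes called in opposite directions in both cycles. Alternatives were 4 other scalings (the one by hybridisation controls added after seeing the data), other pseudocounts and filters, an average over a gene's probe sets, a shared spread over 8 windows, an intensity trend, the array's running number as a term, a slope over the 8 arrays, and leaving out arrays. A search for promoter motifs was planned and not run, because no promoter sequences were at hand. Gene names came from the array's annotation and the S. cerevisiae R64 table.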

Additional observations from a re-analysis of the deposited data

Results flagged for a closer look

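A single array stood far from the other 3 of its window in 12 of 350 sets of 4 arrays, past Dixon's 95% critical value; chance flags about 1 in 20 such sets. In the earlier window these were ANS1 at 60.8, ALP1 at 1340.3, MEP3 at 1254.6, ATG7 at 1143, the cell wall gene PST1 at 3933.1, GPM1 at 16883.3, MF(ALPHA)2 at 90 and FHL1 at 321.4. For ANS1, MEP3, ATG7, GPM1 and FHL1 the stray array was the last of that window, at 11.8 h, which also had the highest median signal of the 8 arrays (2340.2). In the later window they were GRX3 at 4848.9, HHT2 at 6761.4 and SOL3 at 7552.3, each on the array at 11.87 h, and SAG1 at 1058.6 on the array at 12 h.

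The difference of the last step and that of the earlier cycle, between its start and the arrays at 11.33 to 11.53 h, were unequal for 61 of 5377 genes (1.13%; 921 at an unadjusted p under 0.05), by a limma test of the difference over 16 arrays. Among the genes named, the difference was 0.554 for SAG1, 0.358 for OCT1 and -0.736 for CTF19 (log2, last step minus earlier cycle). Chosen after their values were seen, DSE3, a daughter-specific gene, differed by 0.952 and the chitinase gene CTS1 by 0.640. The septum chitin synthase gene CHS2 differed by -0.551 and the spindle midzone gene ASE1 by -0.532. At 11.33 to 11.53 h SAG1 read 1108.6 to 1208.4 and OCT1 877.5 to 966.5, and on the first 4 arrays of the series they read 726.7 to 817.9 and 678.7 to 760.5. DSE3 differed by 0.22 in the last step and by -0.73 in the earlier cycle, and CHS2 by -0.19 and 0.37.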

How the results depend on the processing

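The 145 named genes with a call kept their direction in each alternative except FKH1 (-0.0776) and SFP1 (-0.00761) in the deposited values without scaling and CYC1 (0.0236) with scaling by the poly-A controls, while 17 of the 27 without a call changed sign under at least 1 of the 4 other scalings. Of the 145, 92 were called with each of the 8 arrays left out. Of the list medians larger than the spread between arrays, those that turned were G1 cyclins (-0.142), DNA replication (-0.0415) and alpha-specific genes (-0.297) in the deposited values without scaling, the tricarboxylic acid cycle (0.0371) and alpha-specific genes (-0.0301) with scaling to the same median, the respiratory chain (0.0570), the tricarboxylic acid cycle (0.108) and histones (0.0548) with the poly-A controls, and alpha-specific genes (-0.141) with the hybridisation controls. The medians of 8 other lists, which lay between -0.0821 and 0.0934, also changed sign under at least 1 other scaling. The median of all genes moved from -0.02 to -0.28 in the deposited values, 0.05 with the poly-A and -0.13 with the hybridisation controls.

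Of the counts in the last step, 526 genes rose in the deposited values, 469 fell with the poly-A controls and 1011 fell with the array's running number as a term. At least 2-fold changes were 300 and 224. At an adjusted p under 0.01 there were 0 and 0 by limma, since the smallest adjusted p was 0.0110, while 3364 genes passed an unadjusted 0.05. A slope over the 8 arrays called 1798 genes up and 2013 down, and 2893 of these were also called between the windows. With 1 array left out 833 to 1632 genes rose and 737 to 1818 fell, the step before called 0 to 859 genes, the difference between the steps 0 to 1838 and the earlier cycle 3342 to 4094. The step before called 0 genes in the deposited values, with the same median, with the hybridisation controls, without a filter and with the running number, 3 with a spread from all windows, 98 with a pseudocount of 50, 141 with the poly-A controls and 338 with an intensity trend. The causes were not tested.

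No paired analysis was possible because the labels carry no replicate numbers and the windows are consecutive samples. Each window is 4 samples of 1 culture, with no second culture. Signal over background limits the dimmest genes named, such as ANS1, PHO84 and SPL2.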

Other observations

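Chosen after their values were seen, several genes outside the 41 lists also had unequal differences in the last step and between the start and a later stretch of the earlier cycle, by the limma test of that difference over 16 arrays. COX18, a factor for membrane insertion of a cytochrome oxidase subunit, differed by -0.19 in the last step and by -0.87 in the earlier cycle, a difference of 0.68 ± 0.08 on the log2 scale (adjusted p = 0.00708). GAL1, the galactokinase gene, differed by -0.07 and -0.78 (difference 0.71 ± 0.13, adjusted p = 0.0212). COS10, a subtelomeric family member, differed by -0.10 and 1.13 (difference -1.23 ± 0.26, adjusted p = 0.0397), and COG1, which encodes a tethering complex subunit of the Golgi, by 0.15 and 0.85 (difference -0.70 ± 0.14, adjusted p = 0.0271). The earlier start was set against the arrays at 11.33 to 11.53 h and the last step against those at 11.6 to 11.8 h, so the bases of the 2 differences are not the same.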
